A study of Vitis vinifera with 72 samples.

Results

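Gene expression in the berry pericarp, the skin and flesh of the fruit, was compared between the grapevine cultivars Sangiovese and Cabernet Sauvignon before veraison in Bolgheri, on the Tuscan coast, in 2012. Veraison is the onset of ripening, when berries soften and red cultivars colour. The libraries were chosen by their labels alone: growth stage PV (pre-veraison, BBCH code 79 on the scale of plant development), area Bolgheri and year 2012. They comprised 3 Sangiovese and 3 Cabernet Sauvignon libraries, 6 of the 72 in the series. The series was designed to separate genotype, environment and their interaction. It covers both cultivars in 3 areas (Bolgheri, Montalcino and Riccione) and 2 seasons (2011 and 2012), at PV and at mid-ripening (MR, BBCH 83), with 3 biological replicates in each of 24 groups. The 5 other combinations of area and season at PV, called the other 5 environments here, and the MR groups of Bolgheri 2012 served as comparisons. The labels name no vineyard, vine age, sampling date or hour, so any difference between the sampled vines other than genotype cannot be told apart from cultivar. Nor do they say how the replicates were taken, and the p-values measure the spread between these libraries.

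Much of what distinguishes young grape berries is chemistry built from phenylalanine. Phenylalanine ammonia-lyase opens the phenylpropanoid pathway, and cinnamate 4-hydroxylase and 4-coumarate-CoA ligase carry its product to coumaroyl-CoA. Stilbene synthase and chalcone synthase draw on that same substrate: stilbene synthase makes resveratrol, the grapevine defence compound formed after infection, wounding or ultraviolet light, and chalcone synthase opens the flavonoid pathway to tannins, flavonols and anthocyanins. Before veraison the flavonoid pathway of a red berry serves mainly tannins, and anthocyanin genes come on at veraison. Small heat shock proteins are chaperones that hold unfolding proteins in solution and are strongly induced by heat in plants.

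Values are FPKM (fragments of a transcript, scaled by its length and by all mapped fragments of the library), tested as log2(FPKM + 1), so differences of low genes are understated. A difference is Sangiovese minus Cabernet Sauvignon, and a gene is called when the adjusted p of limma is under 0.05. The deposited IDs carry no gene names. Groups of genes are therefore lists of IDs recalled from published grapevine gene names, unchecked against an annotation, and their members are described without their IDs. The assay is bulk RNA, in which fewer cells of a type and less RNA per cell cannot be told apart.

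The 6 libraries followed their labels. Of IDs found in only 1 cultivar across the other 5 environments, all 5 of Sangiovese read 8.21 to 109.9 FPKM in the Sangiovese libraries and at most 0.0253 in the Cabernet Sauvignon libraries, and all 6 of Cabernet Sauvignon read at most 0.0372 in the Sangiovese libraries and 8.66 to 36.8 in the Cabernet Sauvignon libraries. The mean log2 level of the anthocyanin list was 1.14 to 1.36 in Sangiovese and 1.33 to 1.40 in Cabernet Sauvignon at PV, below the 4.75 to 5.01 and 6.11 to 6.37 of the same cultivars at MR. The tissue was not checked against marker genes. Correlations of log2 values across genes were 0.991 to 0.995 within a cultivar and 0.934 to 0.947 between cultivars. The 10 most abundant IDs took 7.48 to 8.62% of all FPKM in Sangiovese and 14.3 to 14.6% in Cabernet Sauvignon. Read numbers are not given. Relative depth, estimated from the steps between low values, was 0.972 to 1.14 times a typical library in Sangiovese, and 0.523, 0.953 and 2.24 in Cabernet Sauvignon, so low values are less even in precision there.

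The cultivars differed broadly. Of 20443 tested genes, 13108 (64.1%) were called, 7273 higher in Sangiovese (35.6%) and 5835 lower (28.5%). The split depended on scaling, with 6874 higher and 6248 lower by median-of-ratios scaling and 6206 higher and 7104 lower by quantile normalization. Past 2-fold on the log2(FPKM + 1) scale there were 2292 higher (11.2%) and 1409 lower (6.89%), and past 8-fold 201 higher and 128 lower. The median difference over all tested genes was 0.051. In the other 5 environments adjusted p alone called 9059 to 11295 genes, against the 13108 of Bolgheri 2012. There the same rule of 2-fold and adjusted p called 1788 to 2275 genes, against the 3701 of Bolgheri 2012. These shares are the background against which the counts of each list are read.

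The first step of the phenylpropanoid pathway was higher in Sangiovese throughout the tested list. All 10 tested phenylalanine ammonia-lyase IDs of 13 were called higher, with differences of 0.52 to 3.44 and a median of 1.84. With the filter on low values set on the other 5 environments alone, as a mean of at least 1 FPKM over all their libraries, 4 were tested. All 4 were higher. The summed level of the list was 74.7, 75.2 and 139.6 FPKM in the 3 Sangiovese libraries, against 24.4, 16.2 and 13.7 FPKM in the 3 Cabernet Sauvignon libraries. The groups did not overlap, and the ratio of their means was 5.34, or 4.15 without the highest Sangiovese library. The most abundant member read 19.2, 19.8 and 45.7 FPKM in Sangiovese and 10.5, 7.42 and 6.97 FPKM in Cabernet Sauvignon, a difference of 1.56 (limma, adjusted p 0.0021). The member with the largest difference read 15.6, 14.5 and 18.6 FPKM in Sangiovese and 0.891, 0.558 and 0.327 FPKM in Cabernet Sauvignon (3.44, SE 0.29, limma adjusted p 2.5e-15). Of the 8 IDs for cinnamate hydroxylases and coumarate-CoA ligases, 6 were called higher and 2 lower (median 0.92). Their sum was 416.2, 392.9 and 476.9 FPKM in Sangiovese and 325.1, 330.4 and 312.3 FPKM in Cabernet Sauvignon, a smaller gap than for the step before. Here the most abundant member went the other way, at 115.5, 111.1 and 97.3 FPKM in Sangiovese and 144.2, 148.9 and 145.9 FPKM in Cabernet Sauvignon (-0.44, limma adjusted p 8.8e-07), while a scarcer member read 29.8, 24.9 and 47.7 FPKM in Sangiovese and 0.664, 0.0286 and 0.155 FPKM in Cabernet Sauvignon (4.75, limma adjusted p 3.8e-17).

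Stilbene synthases had the largest ratio of summed levels among the 22 lists. The list takes every ID from VIT_16s0100g00750 to VIT_16s0100g01200 and from VIT_10s0042g00840 to VIT_10s0042g00930, 49 in all. Of these, 6 read 0 in all 6 libraries and 37 were tested. The summed level was 227.1, 186.0 and 454.6 FPKM in Sangiovese, against 14.8, 5.95 and 6.03 FPKM in Cabernet Sauvignon. Even the lowest Sangiovese library lay far above the highest Cabernet Sauvignon library. The means were 289.3 ± 144.7 FPKM in Sangiovese and 8.92 ± 5.08 FPKM in Cabernet Sauvignon (SD, n = 3 each), a ratio of 32.4, or 23.2 without the highest Sangiovese library.

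Of the 37 tested stilbene synthase IDs, 36 were higher in Sangiovese and 0 lower, with differences from -0.31 to 4.24 and a median of 2.09. Over all 49 IDs, with no filter, the 3 Sangiovese values lay above the 3 Cabernet Sauvignon values for 40 IDs and below them for 1, where 30.6% and 23.1% of all 29971 deposited IDs did so. Many members passed the filter on low values only through groups in which they are high: with the filter set on the other 5 environments alone, 9 were tested and all 9 were higher. The most abundant member read 20.9, 11.3 and 49.5 FPKM in Sangiovese and 0, 0 and 1.21 FPKM in Cabernet Sauvignon (4.20, SE 0.64, limma adjusted p 1.3e-07). The member with the largest difference read 18.3, 16.5 and 31.7 FPKM in Sangiovese and 0.301, 0.208 and 0.0354 FPKM in Cabernet Sauvignon (4.24, SE 0.23, limma adjusted p 1.1e-22). The tested member that was not called read 0.734, 0.936 and 1.08 FPKM in Sangiovese and 2.84, 1.26 and 0.539 FPKM in Cabernet Sauvignon, which overlap.

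Both ID blocks of stilbene synthases took part. In the VIT_16s0100 block, 29 of 30 tested IDs were higher with a median of 1.72, and the sum was 121.2, 100.6 and 270.5 FPKM in Sangiovese against 10.2, 4.96 and 3.31 FPKM in Cabernet Sauvignon. In the smaller VIT_10s0042 block all 7 tested IDs were higher with a median of 4.09, and the sum was 105.9, 85.3 and 184.1 FPKM in Sangiovese against 4.58, 0.989 and 2.71 FPKM in Cabernet Sauvignon. Stilbene synthase copies are near-identical, so reads may have been split between them by the authors' counting, and the sums are firmer than the values of single copies. Their 2 MYB regulators had smaller differences. Of these IDs, the first read 8.16, 8.11 and 9.24 FPKM in Sangiovese and 5.79, 5.34 and 4.01 FPKM in Cabernet Sauvignon (0.66, limma adjusted p 0.033), a call that was lost when any 1 of the 3 Sangiovese libraries or the third Cabernet Sauvignon library was left out (adjusted p 0.0511 to 0.135). The other read 11.6, 12.6 and 13.8 FPKM in Sangiovese and 10.5, 9.41 and 8.91 FPKM in Cabernet Sauvignon (0.37, limma adjusted p 0.18), did not overlap between cultivars, and passed when the 6 libraries were fitted alone (limma adjusted p 0.0116).

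**Figure D1:**
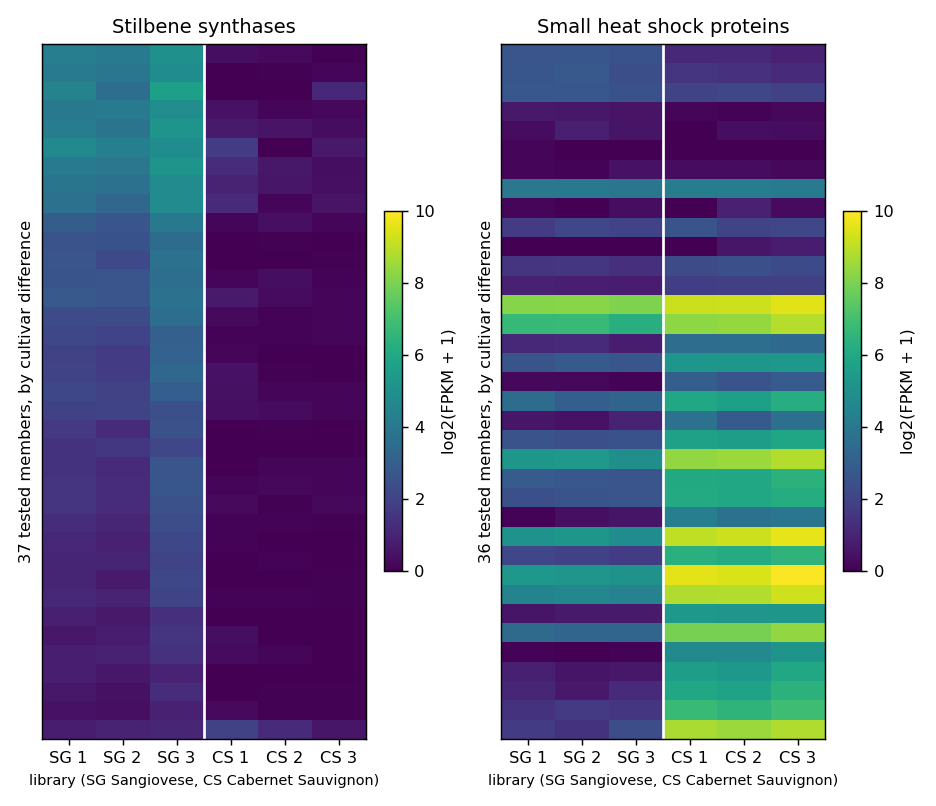
Level of each tested ID of the stilbene synthase list (37 IDs) and the small heat shock protein list (36 IDs) in each of the 6 libraries of Bolgheri 2012 at PV, as log2(FPKM + 1) by colour, with the Sangiovese libraries left of the Cabernet Sauvignon libraries. Stilbene synthases were called higher in Sangiovese for 36 IDs, and small heat shock proteins lower for 26 and higher for 4.

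Flavonoid genes were higher in Sangiovese as well, up to the branch that leads to tannins. Of the 9 IDs for the shared flavonoid steps (chalcone synthases, chalcone isomerases, flavanone 3-hydroxylases, dihydroflavonol reductase and leucoanthocyanidin dioxygenase), 8 were higher and 0 lower, with a median difference of 1.94. Their sum was 707.3, 716.3 and 1010 FPKM in Sangiovese, against 309.6, 298.1 and 307.2 FPKM in Cabernet Sauvignon. The groups were well apart, with a ratio of means of 2.66, or 2.33 without the highest Sangiovese library. The most abundant member read 120.8, 114.8 and 137.0 FPKM in Sangiovese and 75.5, 71.3 and 71.4 FPKM in Cabernet Sauvignon (0.76, limma adjusted p 5.9e-05). The member with the largest difference read 34.6, 36.2 and 52.6 FPKM in Sangiovese and 5.33, 3.97 and 5.00 FPKM in Cabernet Sauvignon (2.85, SE 0.28, limma adjusted p 5.8e-13).

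Of the 5 proanthocyanidin IDs, the genes for the tannin-specific reductases and their regulators, 4 were called higher and 0 lower (median 2.01). The sum was 142.6, 141.1 and 178.2 FPKM in Sangiovese and 59.3, 56.6 and 58.3 FPKM in Cabernet Sauvignon. The most abundant member was even within each cultivar, at 66.2, 66.9 and 66.9 FPKM in Sangiovese and 29.6, 26.6 and 27.4 FPKM in Cabernet Sauvignon (1.23, limma adjusted p 2e-06). The largest difference of the list was 2.42 (limma adjusted p 1.2e-07), from 39.2, 38.2 and 66.2 FPKM in Sangiovese and 7.66, 8.63 and 7.31 FPKM in Cabernet Sauvignon.

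The other flavonoid branches did not share this. Of the 5 flavonol IDs, 1 was higher and 0 lower. Another read 0.730, 1.11 and 1.06 FPKM in Sangiovese and 1.90, 2.05 and 1.73 FPKM in Cabernet Sauvignon (-0.56, limma adjusted p 0.059). These values did not overlap, and the ID passed as lower under several alternatives, among them the 6 libraries alone (limma adjusted p 0.00362). Of the 2 flavonoid 3'-hydroxylase IDs, 0 were called by limma, and 0 had an unadjusted p under 0.05. The more abundant one did not overlap between cultivars (0.24, limma adjusted p 0.14), and passed as higher when the 6 libraries were fitted alone (limma adjusted p 0.0468). Of the 12 tested flavonoid 3',5'-hydroxylase IDs, which hydroxylate the precursors of blue pigments, 4 were called higher and 2 lower (median -0.01); the largest difference was lower in Sangiovese, at 3.17, 3.64 and 3.63 FPKM against 11.5, 10.2 and 12.5 FPKM in Cabernet Sauvignon (-1.47). Of the 11 anthocyanin IDs, 1 was higher and 3 lower, and their sums overlapped at 58.2, 54.5 and 61.3 FPKM in Sangiovese and 62.7, 56.6 and 55.0 FPKM in Cabernet Sauvignon.

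The MYB repressors of the phenylpropanoid pathway, which lower its output when overexpressed, ran opposite to the enzymes. All 4 IDs were lower in Sangiovese, with differences of -1.68 to -0.99. Their sum was 46.4, 46.7 and 52.4 FPKM in Sangiovese, against 157.6, 134.9 and 151.1 FPKM in Cabernet Sauvignon. The groups did not overlap, and the Cabernet Sauvignon mean was 3.05 times the Sangiovese mean. The most abundant member read 22.9, 22.1 and 24.98 FPKM in Sangiovese and 83.2, 69.0 and 78.7 FPKM in Cabernet Sauvignon (-1.68, SE 0.17, limma adjusted p 4.1e-12). In each of the other 5 environments 2 of the 4 IDs were also lower, and 0 to 2 were higher. The member with the largest difference (-1.68) had -1.69 to -0.69 there, with an excess of -0.24 over their mean (limma adjusted p 0.21). A link between repressors and enzymes was not tested.

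Several regulators of development were lower in Sangiovese too. NAC factors include regulators of fruit ripening and senescence, and of 7 IDs 5 were lower and 1 higher. The most abundant of them read 80.4, 84.7 and 77.7 FPKM in Sangiovese, against 330.9, 315.2 and 365.6 FPKM in Cabernet Sauvignon (-2.04, SE 0.089, limma adjusted p 2.7e-26). The largest difference, -2.13, belonged to a scarcer member at 5.35, 6.11 and 7.32 FPKM in Sangiovese and 37.6, 30.2 and 25.2 FPKM in Cabernet Sauvignon. Of the 3 light response IDs, 1 was higher and 1 lower. The lower one read 17.5, 20.5 and 19.7 FPKM in Sangiovese, against 76.4, 71.9 and 83.7 FPKM in Cabernet Sauvignon (-1.96, SE 0.13, limma adjusted p 3.3e-19). In each of these 3 genes the cultivars did not overlap.

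Hormone, sugar and aroma lists gave single genes. The abscisic acid dioxygenases, which make the precursor of the hormone that accompanies veraison, had 0 of 3 IDs called by limma and 0 with an unadjusted p under 0.05. The most abundant read 88.8, 89.0 and 85.3 FPKM in Sangiovese and 69.9, 73.7 and 59.3 FPKM in Cabernet Sauvignon (0.38, limma adjusted p 0.28). Its libraries did not overlap, and it passed when the 6 libraries were fitted alone (limma adjusted p 0.00927). Of 9 sugar transport and invertase IDs, 3 were higher and 2 lower. The largest difference among them was 2.05, from 14.8, 13.7 and 19.7 FPKM in Sangiovese and 4.13, 2.82 and 2.49 FPKM in Cabernet Sauvignon. The 2 methoxypyrazine methyltransferases, which act in making the green-pepper aroma of Cabernet Sauvignon, split: the abundant one was higher in Sangiovese at 38.7, 39.6 and 39.9 FPKM against 23.4, 21.4 and 21.2 FPKM in Cabernet Sauvignon (0.81, limma adjusted p 7.3e-06), and the scarce one was lower at 0.069, 0.075 and 0.066 FPKM against 0.849, 0.518 and 0.294 FPKM in Cabernet Sauvignon (-0.52).

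Defence and cell wall lists were mixed. Class IV chitinases, which cut fungal cell walls, had 3 of 10 tested IDs higher and 3 lower. Their largest difference was 1.85 (limma adjusted p 4.9e-06), from 186.6, 176.4 and 198.3 FPKM in Sangiovese and 53.9, 57.4 and 42.7 FPKM in Cabernet Sauvignon. Thaumatin-like proteins had 3 of 11 higher and 0 lower, and lipoxygenases, the first enzymes of green leaf aroma, 3 of 5 higher and 0 lower. With the filter set on the other 5 environments alone, 3 lipoxygenases were tested and 1 was higher (median 0.09), near the background of 35.6%. The lipoxygenase sums overlapped, at 339.0, 331.7 and 262.6 FPKM in Sangiovese and 328.3, 343.9 and 292.1 FPKM in Cabernet Sauvignon. The most abundant lipoxygenase was not called (-0.24, limma adjusted p 0.56). The thaumatin-like count lay under the background of 35.6%. Their 3 Sangiovese values lay above the 3 Cabernet Sauvignon values for 11 of all 12 IDs, where 30.6% of all deposited IDs did so. PR10 proteins, which are induced by pathogens, had 0 of 6 called by limma and 0 with an unadjusted p under 0.05; the most abundant read 96.9, 141.9 and 135.7 FPKM in Sangiovese and 257.2, 195.8 and 179.3 FPKM in Cabernet Sauvignon (-0.75, limma adjusted p 0.098). These libraries did not overlap, and the ID passed when the 6 libraries were fitted alone (limma adjusted p 0.018). Expansins, which loosen cell walls, had 2 of 5 higher and 2 lower. The larger of these was 94.3, 68.2 and 84.0 FPKM in Sangiovese against 7.42, 10.4 and 5.71 FPKM in Cabernet Sauvignon (3.25, SE 0.45, limma adjusted p 9e-09). Among those lower, the largest difference was -1.65, from 6.57, 8.10 and 10.6 FPKM in Sangiovese and 25.6, 34.03 and 25.5 FPKM in Cabernet Sauvignon.

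Small heat shock proteins were the main group on the Cabernet Sauvignon side. The list takes every ID from VIT_13s0019g02740 to VIT_13s0019g03170 and from VIT_04s0008g01490 to VIT_04s0008g01610, 53 in all, of which 12 read 0 in all 6 libraries and 36 were tested. The ranges may hold neighbours that are not heat shock genes. Of the 36, 26 were lower in Sangiovese and 4 higher, with differences from -6.82 to 1.57 and a median of -2.69. The summed level was 614.1, 629.6 and 541.0 FPKM in Sangiovese, against 4371, 4314 and 5690 FPKM in Cabernet Sauvignon. The groups did not overlap, and the Cabernet Sauvignon mean was 8.05 times the Sangiovese mean (594.9 ± 47.3 FPKM in Sangiovese and 4791 ± 778.3 FPKM in Cabernet Sauvignon, SD, n = 3 each).

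The gap was widest in the VIT_04s0008 block, where 9 of 11 tested IDs were lower and 0 higher, with a median of -4.44. Its sum was 76.5, 70.6 and 69.7 FPKM in Sangiovese and 1867, 1724 and 2339 FPKM in Cabernet Sauvignon. In the VIT_13s0019 block 17 of 25 tested IDs were lower and 4 higher, with a median of -1.96, and the sum was 537.6, 559.0 and 471.3 FPKM in Sangiovese and 2504, 2590 and 3350 FPKM in Cabernet Sauvignon. The most abundant member of the list read 288.3, 294.4 and 264.8 FPKM in Sangiovese and 589.0, 601.6 and 757.3 FPKM in Cabernet Sauvignon (-1.19, limma adjusted p 7.3e-07). Its difference was thus smaller than the list's median.

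**Figure D2:**
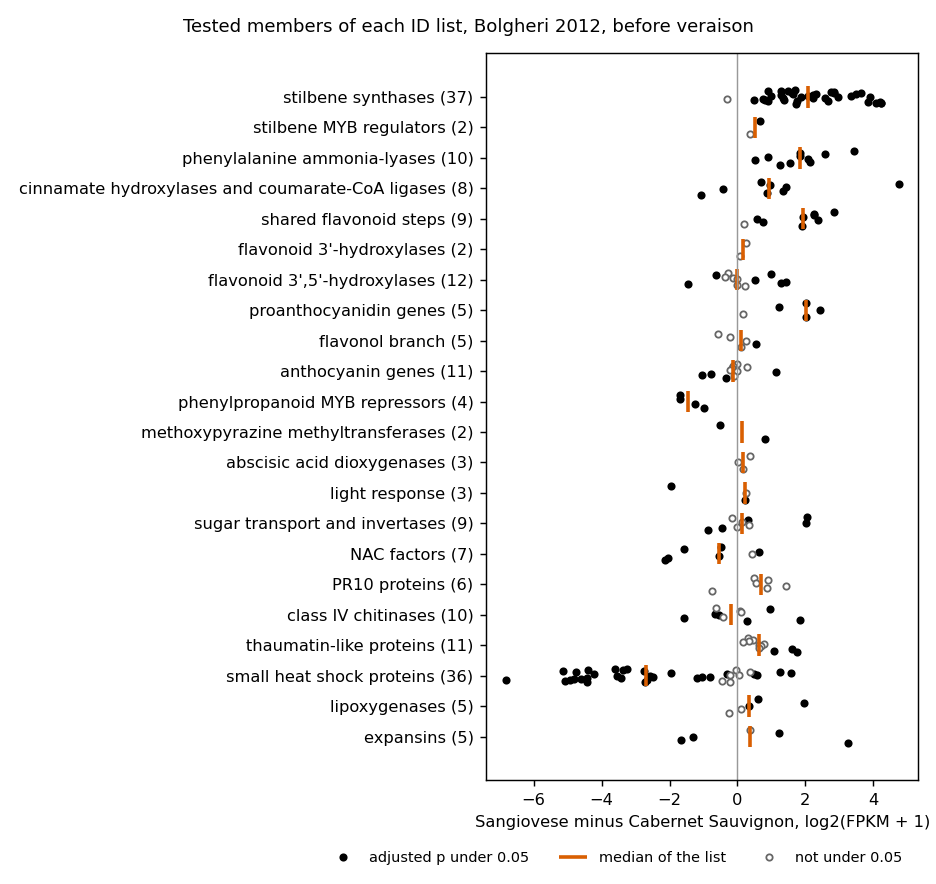
Log2 difference, Sangiovese minus Cabernet Sauvignon, of every tested member of the 22 lists in Bolgheri 2012 at PV, 1 point per ID, with the median of each list. The median of all tested genes, which is not drawn, was 0.051. Stilbene synthases, proanthocyanidin genes, shared flavonoid steps and phenylalanine ammonia-lyases have medians of 1.84 to 2.09, and small heat shock proteins of -2.69.

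The size of these differences was next compared with the same cultivar difference in the other 5 environments at PV. The difference of Bolgheri 2012 differed from their mean for 10670 genes (52.2%), 5910 in the higher direction (28.9%) and 4760 in the lower (23.3%), and past 2-fold for 1750 and 728. Of these calls 55.4% were in the higher direction, which became 51.9% with median-of-ratios scaling and 43.9% with quantile normalization. Stilbene synthases were called higher for 36 of 37 tested IDs (median 1.96), phenylalanine ammonia-lyases for 10 of 10 (1.74), shared flavonoid steps for 7 of 9 (1.74) and proanthocyanidin genes for 4 of 5 (1.57). Of the 4 MYB repressors 2 were called lower and 1 higher, and of the 7 NAC factors 5 were called lower (median -0.94). Small heat shock proteins were called lower for 26 of 36 (median -2.50). Only 9 of the stilbene synthases and 4 of the phenylalanine ammonia-lyases pass the filter on the other 5 environments alone, and the rest were tested through groups in which they are high. All 9 and all 4 were called higher here. In the cultivar difference itself, stilbene synthases had 36 and 33 IDs higher, phenylalanine ammonia-lyases 10 and 9, and small heat shock proteins 26 and 26 lower, with median-of-ratios scaling and quantile normalization in that order.

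Within single environments the stilbene synthase list looked unlike that of Bolgheri 2012. Of its 37 tested IDs, 5 were higher in Sangiovese in Bolgheri 2011 (background 25.2%), 0 in Montalcino 2011 (24.5%), 13 in Montalcino 2012 (32.5%), 0 in Riccione 2011 (22.9%) and 14 in Riccione 2012 (26.4%). The summed level in Sangiovese reached 56.4 to 84.0 FPKM in Montalcino 2012 and 75.1 to 118.9 FPKM in Riccione 2012, and 1.42 to 42.3 FPKM over the libraries of 2011. As shares of the list, the counts of 2011 lay under the background in all 3 areas, and that of Montalcino 2012 lay near it. Only 9 of the 37 IDs average at least 1 FPKM over the other 5 environments, and IDs near 0 can hardly be called. The low counts there are therefore partly set by how IDs entered the test, and are not read as a result. Cabernet Sauvignon reached 17.6 to 27.5 FPKM in Montalcino 2012 and 31.3 to 46.1 FPKM in Riccione 2012, both above its 5.95 to 14.8 FPKM in Bolgheri 2012. Bolgheri 2012 thus paired the highest Sangiovese sums with Cabernet Sauvignon sums below those of the other areas of that season.

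Small heat shock proteins were lower in Sangiovese for 8 of 36 IDs in Bolgheri 2011 (background 27.2%), 8 in Montalcino 2011 (24.8%), 19 in Montalcino 2012 (22.7%), 15 in Riccione 2011 (21.4%) and 17 in Riccione 2012 (24.5%). In Bolgheri 2011 and Montalcino 2011 that share was no larger than the background. The summed level in Bolgheri 2011 was 4310 to 6531 FPKM in Sangiovese and 6877 to 8897 FPKM in Cabernet Sauvignon. In Montalcino 2011 it was 3726 to 6216 FPKM in Sangiovese and 3987 to 4458 FPKM in Cabernet Sauvignon, and in Riccione 2011 it was 577.4 to 694.7 FPKM in Sangiovese and 1007 to 1134 FPKM in Cabernet Sauvignon. In Montalcino 2012 it was 753.5 to 963.9 FPKM in Sangiovese and 2127 to 2425 FPKM in Cabernet Sauvignon, and in Riccione 2012 it was 983.1 to 1193 FPKM in Sangiovese and 2355 to 2684 FPKM in Cabernet Sauvignon. The Sangiovese sums of Bolgheri 2012 overlapped those of Riccione 2011 and lay below those of the other 4 environments. Its Cabernet Sauvignon sums overlapped those of Montalcino 2011, lay below Bolgheri 2011 and lay above the other 3 environments. The labels give no temperature, and its part in these levels was not tested.

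Shared flavonoid steps were higher in Sangiovese for 8 of 9 IDs in Bolgheri 2011 (median 0.81, background 25.2%). In Riccione 2012 they were higher for 5 of 9 (median 0.66, background 26.4%). In each of the other 3 environments 1 or 2 were higher (backgrounds of 22.9 to 32.5%). They were lower for 3 in Montalcino 2011 and for 2 in Montalcino 2012. Their sum in Sangiovese was 707.3 to 1010 FPKM in Bolgheri 2012, below the 1399 to 2207 FPKM of Bolgheri 2011. Phenylalanine ammonia-lyases were higher for 3 of 10 IDs in Bolgheri 2011 (background 25.2%), for 4 in Montalcino 2012 (32.5%) and for 4 in Riccione 2012 (26.4%). They were higher for 0 in Montalcino 2011 (24.5%) and Riccione 2011 (22.9%, limma), and lower for 1 in Montalcino 2011 and 1 in Riccione 2012. The counts of Bolgheri 2011 and Montalcino 2012 lay near the background. Only 4 of the 10 IDs average at least 1 FPKM over the other 5 environments, which limits what could be called there.

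**Figure D3:**
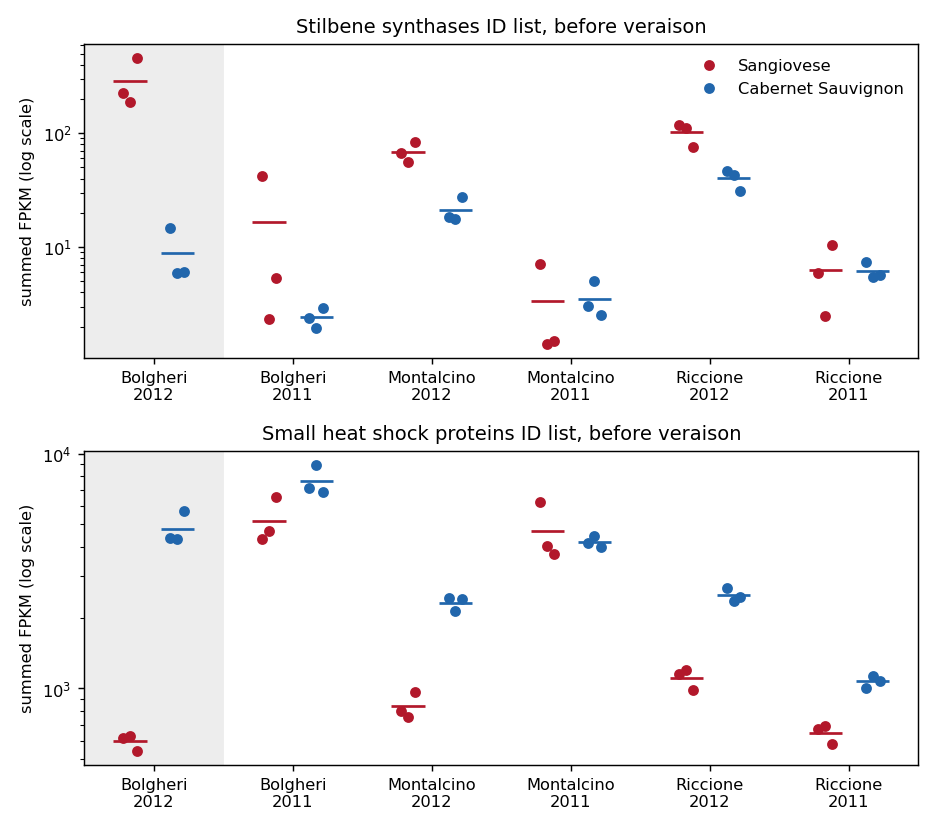
Summed FPKM of the stilbene synthase list and the small heat shock protein list in each of the 36 PV libraries, by environment on a log axis, with Sangiovese left of Cabernet Sauvignon. In Bolgheri 2012 the stilbene synthase sums were 186.0 to 454.6 in Sangiovese and 5.95 to 14.8 in Cabernet Sauvignon, and the small heat shock protein sums 541.0 to 629.6 in Sangiovese and 4314 to 5690 in Cabernet Sauvignon.

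Each cultivar was then set against its own libraries from the other 5 environments. Sangiovese of Bolgheri 2012 differed for 10590 genes (51.8%), 5800 higher (28.4%) and 4790 lower (23.4%), and past 2-fold for 1095 and 339. Of its calls 54.8% were higher, or 51.7% with median-of-ratios scaling and 43.4% with quantile normalization. Cabernet Sauvignon of Bolgheri 2012 differed for 6713 genes (32.8%), 3201 higher (15.7%) and 3512 lower (17.2%), and past 2-fold for 109 and 289. This split turned to 3457 higher and 3348 lower with median-of-ratios scaling and to 3660 higher and 2974 lower with quantile normalization. Without both Cabernet Sauvignon libraries of extreme depth, a choice made after the depths were seen, the Cabernet Sauvignon comparison called 1879 genes. That fit has a single Cabernet Sauvignon library of Bolgheri 2012 (n = 1), assumed to vary like the other groups.

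The lists differed in which cultivar's members were called. Stilbene synthases were called higher in Sangiovese of Bolgheri 2012 for 36 IDs (median 1.86) and in Cabernet Sauvignon for 0 in either direction (median -0.12, limma, 0 with an unadjusted p under 0.05). Levels of this list in Cabernet Sauvignon were low, which left little room to call a fall. The mean Cabernet Sauvignon sum of 8.92 FPKM in Bolgheri 2012 lay above its groups of 2011 (2.42 to 6.19 FPKM). It lay below Montalcino 2012 (21.2 FPKM) and Riccione 2012 (40.1 FPKM), and the comparison averages over both seasons. Phenylalanine ammonia-lyases were higher in Sangiovese for 10 of 10 (median 1.35) and lower in Cabernet Sauvignon for 2 (median -0.16). Of the members that pass the filter on the other 5 environments alone, 9 of 9 stilbene synthases and 4 of 4 phenylalanine ammonia-lyases were higher in Sangiovese. By summed level the phenylalanine ammonia-lyases of Sangiovese averaged 96.5 FPKM in Bolgheri 2012 and 100.2 FPKM in Bolgheri 2011, with overlapping libraries. Those of Cabernet Sauvignon averaged 18.1 FPKM in Bolgheri 2012, against 22.95 to 71.3 FPKM in the other 5 environments. Shared flavonoid steps were higher in Sangiovese for 5 of 9 (median 0.58) and lower in Cabernet Sauvignon for 8 (median -0.98). Proanthocyanidin genes were higher in Sangiovese for 3 of 5 (median 0.86) and lower in Cabernet Sauvignon for 4 (median -0.57). Small heat shock proteins moved in both, lower in Sangiovese for 25 of 36 (median -1.22) and higher in Cabernet Sauvignon for 15 (median 0.36). The most abundant MYB repressor departed by -0.97 in Sangiovese and by 1.35 in Cabernet Sauvignon, and its cultivar difference by -2.32.

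**Figure D4:**
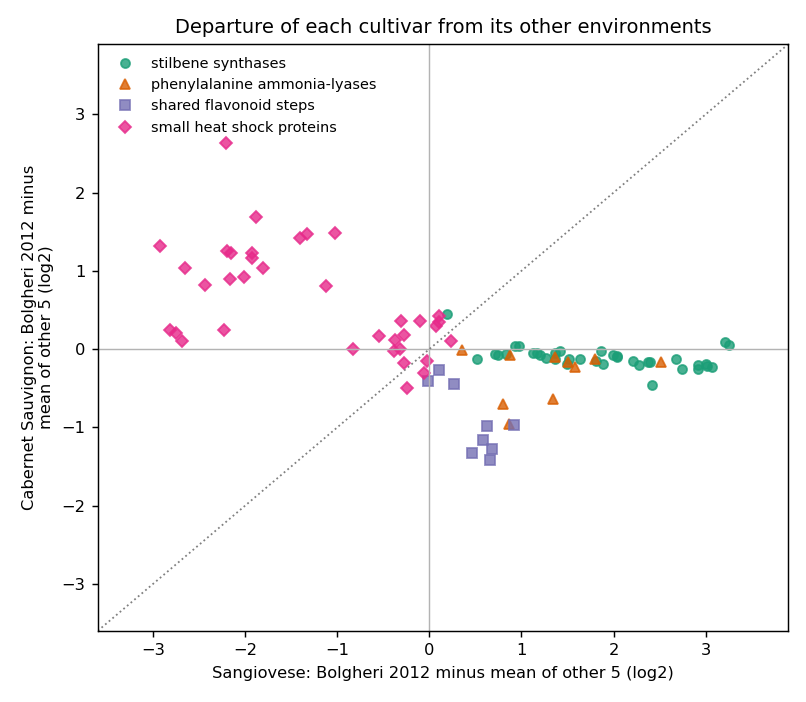
Departure of Bolgheri 2012 from the other 5 environments at PV in Sangiovese and in Cabernet Sauvignon, as a log2 difference for each tested member of 4 lists. Stilbene synthases spread along the Sangiovese axis (median 1.86, against -0.12 in Cabernet Sauvignon), and shared flavonoid steps lie mainly below 0 for Cabernet Sauvignon (median 0.58 in Sangiovese and -0.98 in Cabernet Sauvignon). Stilbene synthase levels in Cabernet Sauvignon were low, which left little room for a fall.

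Set against Bolgheri 2011 alone, the cultivar difference of 2012 differed for 8342 genes (40.8%), 5024 in the higher direction (24.6%) and 3318 in the lower (16.2%). That split of 60.2% higher became 49.6% with median-of-ratios scaling and 48.5% with quantile normalization. Stilbene synthases were called higher for 33 of 37 IDs and small heat shock proteins lower for 26 of 36. Only 9 of the 37 stilbene synthases pass the filter on the other 5 environments alone. The rest were tested through groups in which they are high, which limits how the 33 can be read. The comparison with Bolgheri 2011 and that with the other 5 environments share the libraries of both years, and their values are given side by side only. Against MR of the same area and season the cultivar difference differed for 11689 genes (57.2%), 6050 higher (29.6%) and 5639 lower (27.6%), which turned to 5469 higher and 6370 lower with quantile normalization. Stilbene synthases were no longer on one side here, with 11 higher and 12 lower and a median of -0.16. At MR their sum was 124.5 to 304.7 FPKM in Sangiovese and 1.48 to 4.58 FPKM in Cabernet Sauvignon, so both stages had a wide gap. For shared flavonoid steps the difference at PV exceeded that at MR for 7 of 9 IDs (median 2.28), and the order of the sums turned at MR, with 1764 to 2334 FPKM in Sangiovese and 2672 to 3239 FPKM in Cabernet Sauvignon.

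Among the IDs picked by size of difference, some were alike across environments and others were not. VIT_02s0033g00420 read 363.7, 427.4 and 332.7 FPKM in Sangiovese and 0, 0 and 0 FPKM in Cabernet Sauvignon. It had the largest difference of all by the naming rule (8.55, SE 0.21, limma adjusted p 3.7e-37), and an excess of 0.13 over the mean difference of the other 5 environments (SE 0.23, limma adjusted p 0.68). On the other side, VIT_04s0008g03700 read 0, 0 and 0 FPKM in Sangiovese and 372.2, 249.7 and 175.8 FPKM in Cabernet Sauvignon (-7.99, SE 0.48, limma adjusted p 1.5e-20), with an excess of -0.84 (SE 0.53, limma adjusted p 0.18). The difference in each of the other 5 environments was 8.07 to 8.92 for VIT_02s0033g00420 and -7.56 to -6.38 for VIT_04s0008g03700.

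Other IDs were large in Bolgheri 2012 and small or opposite elsewhere. VIT_12s0059g01830 read 237.2, 242.6 and 377.4 FPKM in Sangiovese and 0.437, 0.122 and 0.262 FPKM in Cabernet Sauvignon (7.79, SE 0.39, limma adjusted p 1.1e-23), against differences of 1.05 to 2.89 in the other 5 environments. VIT_04s0008g01520, an ID inside the small heat shock protein ranges, read 2.32, 1.78 and 4.19 FPKM in Sangiovese and 422.1, 357.6 and 451.3 FPKM in Cabernet Sauvignon (-6.82, SE 0.54, limma adjusted p 5.9e-16), against -3.59 to -0.64 elsewhere. In both, the difference lay outside the range of the other 5 environments.

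The excess over the other 5 environments was largest for 3 further IDs. VIT_09s0002g05320 read 43.8, 37.2 and 39.9 FPKM in Sangiovese and 0.327, 1.29 and 0.695 FPKM in Cabernet Sauvignon, with differences of -2.83 to -1.36 elsewhere (excess 6.77, SE 0.32, limma adjusted p 7.1e-24). VIT_09s0002g03140 read 79.8, 69.6 and 113.6 FPKM in Sangiovese and 0.901, 0.492 and 0.506 FPKM in Cabernet Sauvignon, with differences of -1.76 to 0.33 elsewhere (excess 6.17, SE 0.41, limma adjusted p 2.7e-18). The largest excess in the lower direction was that of VIT_01s0011g05110, at 1.796, 2.63 and 3.11 FPKM in Sangiovese and 239.3, 279.9 and 295.4 FPKM in Cabernet Sauvignon. Elsewhere its differences were 2.52 to 4.36, so the cultivar order of Bolgheri 2012 was the reverse of the other 5 environments (excess -9.95, SE 0.33, limma adjusted p 6.3e-30). Both cultivars took part, with a departure from its own mean elsewhere of -6.02 in Sangiovese and 3.92 in Cabernet Sauvignon on the log2 scale.

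VIT_19s0014g02740 was looked at after its values were seen, as the most abundant ID. It read 18590, 20670 and 16130 FPKM in Sangiovese, which was 1.98 to 2.50% of all FPKM, and 71050, 70770 and 73930 FPKM in Cabernet Sauvignon, which was 8.15 to 8.40%. Its difference was -1.97 (SE 0.24, limma adjusted p 5.9e-10), against 0.40 to 0.83 in the other 5 environments. Because FPKM values are shares of what a library holds, a share of this size bears on the values of all other genes. Quantile normalization gives the top-ranked gene the same value in every library, and its difference there was 0.

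**Figure D5:**
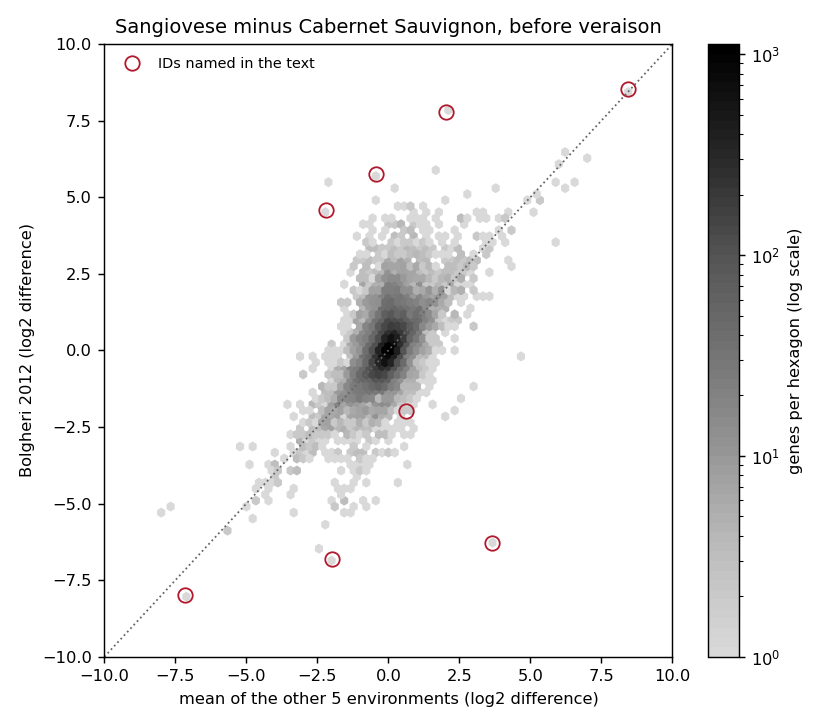
Cultivar difference (log2, Sangiovese minus Cabernet Sauvignon) of every tested gene at PV in Bolgheri 2012 against its mean over the other 5 environments, with shading for the number of genes and the named IDs marked. VIT_02s0033g00420 and VIT_04s0008g03700 lie near the diagonal, and VIT_01s0011g05110 and VIT_09s0002g05320 have opposite signs on the axes.

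Most genes with a settled cultivar difference kept it in Bolgheri 2012. Of 2337 genes called higher in Sangiovese in all of the other 5 environments, 1836 (78.6%) were called higher in Bolgheri 2012, 146 lower and 355 not called. Of 2031 called lower in all of the other 5, 1627 (80.1%) were called lower and 130 higher. Of 3298 genes called in none of the other 5, 868 were called higher and 485 lower in Bolgheri 2012, of which 290 and 57 were past 2-fold. Among the 1750 genes whose difference exceeded that of the other 5 past 2-fold in the higher direction, 684 were called as standing apart in Sangiovese only, 77 in Cabernet Sauvignon only, 975 in both and 14 in neither. In the lower direction the 728 genes split into 188, 40, 498 and 2. The excess is the departure of Sangiovese minus that of Cabernet Sauvignon, from the same libraries. Genes picked by it must therefore depart in at least 1 cultivar, and the small counts in neither follow from the choice. Over all tested genes Sangiovese was called higher for 28.4% and lower for 23.4%, and Cabernet Sauvignon higher for 15.7% and lower for 17.2%.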

How the data were processed

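RNA of berry pericarp had been sequenced by the study's authors from non-directional TruSeq libraries, per the labels' protocols, so reads from overlapping or antisense genes cannot be told apart. Tools listed in the submitters' processing notes are Cufflinks 2.1.1, TopHat2 2.0.9 and CASAVA 1.8.2, with no role, option or genome build. The authors deposited FPKM values of 29971 IDs, with a column for each library. Columns were matched to samples by the number in their header. Absolute depth is unknown. Relative depth came from the steps between low values of 3970 genes, where 93.6% of values under 3.5 reads fell on a whole number give or take 0.1. Values near 1 read had also set the steps.

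Genes with a mean of at least 1 FPKM in at least 1 of 24 groups were tested (20443). Values were taken as log2(FPKM + 1) with no further scaling. A mean for each of the 24 groups was fitted to all 72 libraries in limma 3.58.1 under R 4.3.3 (eBayes with trend, 48 residual degrees of freedom). Contrasts gave the cultivar difference in Bolgheri 2012 at PV, its difference from the mean of the other 5 environments, from Bolgheri 2011 and from MR, and each cultivar of Bolgheri 2012 against itself in the other 5. P-values are two-sided and Benjamini-Hochberg adjusted over all 20443 genes, with a threshold of 0.05.

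Members and lists were chosen with earlier results of these data known. The 22 lists hold 264 IDs recalled from published grapevine gene names, of which 0, like all 29971 IDs, matched a gene in the RefSeq table of 29591 genes. Lists are described by counts and medians, without a list test. The 2 IDs with the largest called differences each way are named, in the cultivar difference and in its excess over the other 5 environments, provided that libraries do not overlap and the higher mean is at least 10 FPKM. The most abundant member, that with the largest difference or both are described for most lists. Neither is described for anthocyanin genes and thaumatin-like proteins. Alternatives were 2 other pseudocounts (0.1 and 5), 3 other filters (none, at least 5 FPKM, and a filter set on the other 5 environments), median-of-ratios and quantile scaling, a 2-fold minimum, PV libraries alone, the 6 libraries alone and each library left out. Sequences and genome positions are not given.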

Additional observations from a re-analysis of the deposited data

Results flagged for a closer look

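The cultivar difference of Bolgheri 2012 before veraison stood apart from the same difference elsewhere, by the test of the difference itself. It differed from the mean of the other 5 environments for 10670 genes (52.2% of those tested) and from Bolgheri 2011 for 8342 genes (40.8%). From mid-ripening in Bolgheri 2012 it differed for 11689 genes (57.2%, limma, adjusted p under 0.05 in all). Against the other 5 environments, 36 of 37 tested stilbene synthases, 10 of 10 phenylalanine ammonia-lyases and 7 of 9 IDs of the shared flavonoid steps differed in the higher direction. Over all tested genes that share was 28.9%. In the lower direction 26 of 36 small heat shock proteins differed, where 23.3% of all tested genes did so. Only 9 of those stilbene synthases and 4 of those phenylalanine ammonia-lyases pass the filter on the other 5 environments alone; the rest were tested through groups in which they are high. Shared flavonoid steps were also higher in Sangiovese for 8 of 9 IDs in Bolgheri 2011, where 25.2% of all tested genes were.

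Of the named IDs, 6 had such a difference from the other 5 environments, on the log2 scale. It was 5.78 for VIT_12s0059g01830, 6.77 for VIT_09s0002g05320 and 6.17 for VIT_09s0002g03140. In the lower direction it was -4.84 for VIT_04s0008g01520, -9.95 for VIT_01s0011g05110 and -2.58 for VIT_19s0014g02740, the last of which was 0 under quantile normalization. VIT_09s0002g05320, VIT_09s0002g03140, VIT_01s0011g05110 and VIT_04s0008g01520 were named for the size of this difference, so its presence in them follows from the choice. VIT_12s0059g01830 was named for its cultivar difference, which shares libraries with the difference from the other 5 environments. VIT_19s0014g02740 was added after its values were seen. The values of these IDs are therefore a description, not a test.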

How the results depend on the processing

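The counts of called genes kept within 1.5 times of their values under the other pseudocounts, filters, scalings and fits. With a log2 difference of at least 1 they were 3701 for the cultivar difference, 2478 for its difference from the other 5 environments, 2289 from Bolgheri 2011, 4031 from mid-ripening, 1434 for Sangiovese against itself elsewhere and 398 for Cabernet Sauvignon. Without both Cabernet Sauvignon libraries of extreme depth, an alternative chosen after seeing the data, the Cabernet Sauvignon count was 1879, with 1 library left in that group and its spread taken from the others. Leaving out each library gave 12118 to 12526 for the cultivar difference, 9704 to 10090, 7445 to 7963 and 11069 to 11304 for its 3 differences from elsewhere, and 8990 to 10568 for Sangiovese and 4831 to 6716 for Cabernet Sauvignon. Members called higher were fewer under stricter filters: with a filter of 5 FPKM, 22 stilbene synthases and 5 phenylalanine ammonia-lyases, and with the filter set on the other 5 environments, 9 and 4, since fewer were tested. The median of the 2 methoxypyrazine methyltransferases was -0.506 with a pseudocount of 0.1, and that of the flavonol branch -0.124 with quantile normalization, both reversed; the cause was not tested. No paired analysis was possible because the labels give no replicate numbers. Values near 0 rest on unknown numbers of reads, and near-identical copies may share reads.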

Other observations

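Some IDs were read in only 1 cultivar. At 0 FPKM in all 3 libraries of the other cultivar and a mean of at least 10 FPKM in its own, there were 18 such IDs in Sangiovese (means of 11.6 to 440.3 FPKM) and 21 in Cabernet Sauvignon (10.1 to 265.9 FPKM). Of the 18, 3 were also at 0 in every Cabernet Sauvignon library of the other 5 environments, and 6 reached at least 10 FPKM in some of them. Of the 21, 4 were at 0 in every Sangiovese library of the other 5 environments, and 3 reached at least 10 FPKM.

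Blocks of IDs that share a prefix were ranked by their share of differences past 2-fold, as a description with no test, and the extremes of 174 ranked blocks stand out in part by the ranking itself. Among these blocks, each with at least 10 tested IDs, VIT_00s0160 had 8 of 14 higher in Sangiovese (57.1%), VIT_18s0117 had 11 of 30 (36.7%), VIT_11s0206 had 4 of 12 (33.3%) and VIT_16s0100, which holds the larger stilbene synthase block, had 26 of 82 (31.7%). In the same order, 0 of 14, 2 of 30 (6.67%), 2 of 12 (16.7%) and 10 of 82 (12.2%) were lower. Many stilbene synthase IDs were tested only through groups in which they are high. The highest shares of lower IDs were 3 of 14 (21.4%) in VIT_00s0184 and in VIT_04s0210. Over all tested genes these shares were 11.2% higher and 6.89% lower.

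A library stood at least 1 above both others of its cultivar on the log2 scale for 25, 72 and 191 genes in the 3 Sangiovese libraries and for 103, 25 and 72 genes in the 3 Cabernet Sauvignon libraries. The highest of these counts belonged to the Sangiovese library with the highest stilbene synthase sum.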
